A study of Mus musculus with 12 samples.

Results

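The genes described here are the interleukins, the colony-stimulating factors, tumour necrosis factor and their receptor chains, measured as messenger RNA in mouse lung tumours. Members were the array probes whose gene name in the scanner files begins with Il and a digit, apart from Il8rb, together with those named Csf1, Csf2, Csf3, Csf2ra, Csf2rb, Csf3r, Tnf or Lif. The rule found 125 probes of 41174, which stood for 86 genes of 21574. No probe carried the file names Csf2rb or Lif, and Il33 and Il34 were outside the rule because the array lists them under clone names. Of the 86 genes, 76 had a probe well above background often enough to be tested: 33 ligands, 38 receptor chains, 4 antagonists, binding proteins or decoy receptors, and Il4i1, a secreted amino acid oxidase that shares only the name. The other 10 (Csf3, Il17a, Il1f9, Il20, Il22, Il22ra2, Il31, Il5, Il5ra and Il9) were too dim and are not part of any count below.

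The study compared tumours homozygous for a conditional knockout (KO) of Dnmt3a, a de novo DNA methyltransferase, with tumours wild type (WT) at that locus. All tumours, WT ones included, arose in C57/129 mice that carried the K-ras LSL-G12D allele and received a Cre-expressing adenovirus through the airways at 6 to 12 weeks of age, so both genotypes share the activated K-ras and the virus. Each of 12 two-colour arrays (replicates 1 to 12) set KO against WT RNA directly, and the KO RNA carried Cy5 on 6 of them and Cy3 on 6. Arrays whose labels share the ages and sexes of both animals are called a pair here. Pair A (replicates 1 to 4) set a male KO tumour of age 47.7 against a male WT tumour of age 42.6, and pair B (5 to 8) a male KO of 27 against a male WT of 41.3. Pair C (9 and 10) set a male KO of 27 against a female WT of 47.6, with KO in Cy5 on both arrays, and pair D (11 and 12) a male KO of 29.1 against a male WT of 37.3, with KO in Cy3 on both. The unit of these ages is not given, the KO ages lie below the WT ages in 3 of 4 pairs, and the KO RNA of pairs B and C may come from 1 animal. The labels do not say which airway cells recombined or whether a sample is 1 tumour or several. P-values therefore measure the spread between arrays, part of which may be technical.

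Interleukins and colony-stimulating factors are secreted proteins through which immune, stromal and epithelial cells instruct one another. Most bind receptors built from a ligand-specific chain and a chain shared by a family of ligands, such as gp130 for the IL-6 family or the common beta chain for GM-CSF and IL-3, and signal through Janus kinases and STAT proteins. Receptors of the IL-1 family and of tumour necrosis factor instead act through adaptor proteins that lead to NF-kappaB. In the lung, GM-CSF maintains alveolar macrophages, M-CSF supports macrophages more widely, and IL-33 acts through its receptor ST2 on mast cells and type 2 lymphoid cells.

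Values below are log2 ratios of KO over WT, each gene by its brightest kept probe, so that -1 is a halving in KO. Between 81.6% and 89.6% of probes were well above background on the arrays of slides 1 and 2 (pairs A and B) and between 59.0% and 72.2% on slide 3 (pairs C and D), which was scanned on another day, and 0 probes were saturated. Ratios of arrays of the same pair correlated across genes at a mean r of 0.30, against 0.20 for arrays of different pairs. Dnmt3a itself was lower in KO on 12 of 12 arrays (lowest -0.41, median -0.17, highest -0.06), and the fit gave -0.21 ± 0.046 (SE over 12 arrays; limma adjusted p = 0.0209). The difference is small, and the labels do not say which stretch of the gene is deleted. Surfactant and other epithelial markers were well above background in both genotypes, with 0 of 7 called.

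Of the 76 members, 0 rose in KO and 4 fell, at a limma adjusted p under 0.05 over 19921 genes. Over all genes, 3.51% were called higher and 3.96% lower (7.46% either way), so that the 4 lower members (5.26%) are close to the background share. The 4 were the receptor chains Il6st, Il4ra and Il12rb1 and the ligand Csf1. In whole tumours, fewer cells of a type and less RNA per cell cannot be told apart. The calls rest on 12 arrays of 4 pairs of tumours: when each pair was averaged to 1 value, 0 members and 49 genes were called, and within slides 1, 2 and 3 taken alone 0 members were called on each. The pair means of all 4 were below 0 in every pair, but the 4 were picked on these same arrays, so this is no separate support. Leaving out replicate 12 left 0 lower members, leaving out replicate 3, 7 or 9 left 1, leaving out replicate 1, 2 or 8 left 2, and leaving out replicate 5 gave 6. Over all probes, 4 of 103 kept member probes were called, against 5.71% of all kept probes. At an unadjusted p under 0.05, 1 member was higher and 12 were lower, which is 1.32% and 15.8% of members against 11.1% and 11.5% of all genes. The fitted ratio was below 0 for 56 of 76 members (73.7%), against 52.7% of all genes, with a median of -0.05 for members and -0.0060 for all genes. Most differences were small: 61 of 76 members (80.3%) had a fitted ratio within 0.2 of 0, against 73.2% of all genes. Among ligands 1 of 33 fell, and among receptor chains 3 of 38 fell. A ratio below 0 on at least 10 of 12 arrays was seen in 11 members (14.5%), against 8.79% of all genes, and 0 members were above 0 on that many.

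**Figure D1:**
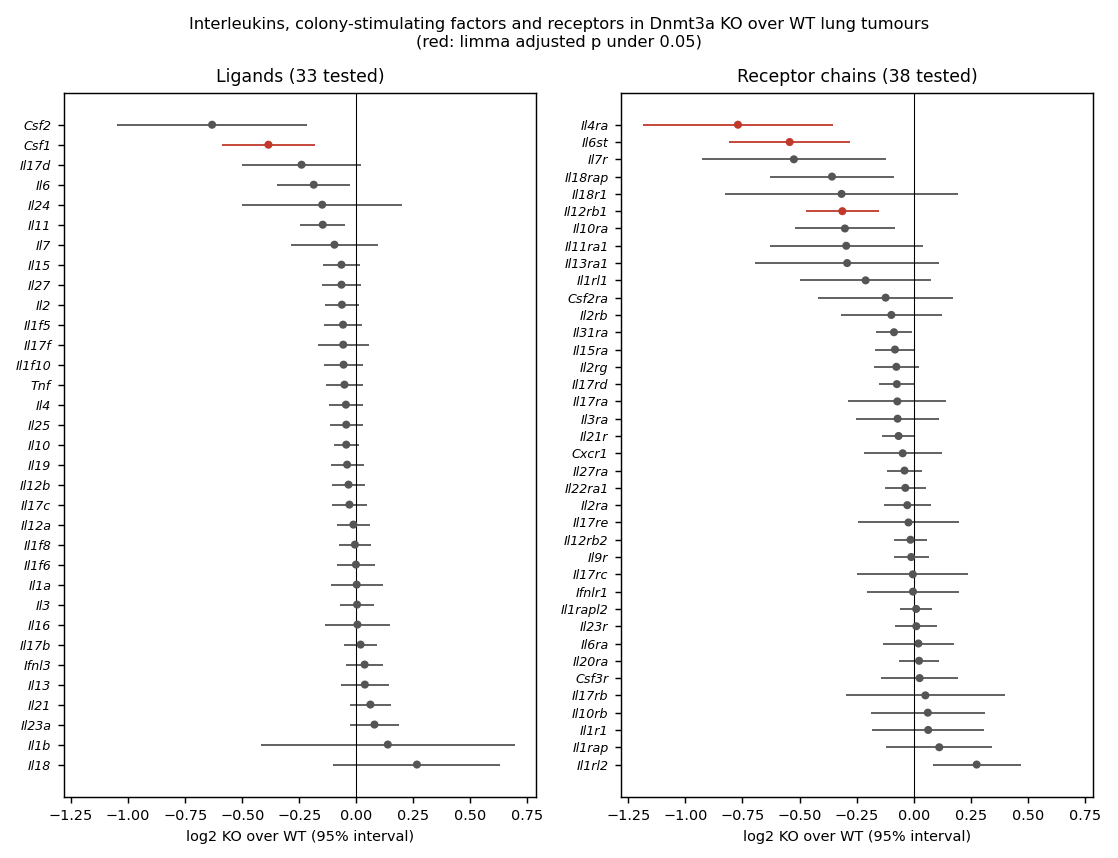
Fitted log2 KO over WT ratio of each tested ligand (left, 33) and receptor chain (right, 38), with points for the estimate and lines for its 95% interval over 12 arrays. The 4 members in red passed a limma adjusted p under 0.05 and all lie below 0, while 61 of the 76 members lie within 0.2 of 0.

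Dnmt3a acts on CG dinucleotides, so the promoters of 3 of the 4 members that fell are shown with each CG in capitals (Il12rb1 is named only). The windows run from 250 bases before to 50 after the RefSeq start of the gene on GRCm38.p6, 5′ to 3′ on the gene's strand: chr13:112463820-112464119 for Il6st (plus strand), chr7:125552021-125552320 for Il4ra (plus), chr3:107760420-107760719 for Csf1 (minus) and, for a member that missed the threshold, chr11:54249850-54250149 for Csf2 (minus). Methylation was not measured in these files.
Il6st: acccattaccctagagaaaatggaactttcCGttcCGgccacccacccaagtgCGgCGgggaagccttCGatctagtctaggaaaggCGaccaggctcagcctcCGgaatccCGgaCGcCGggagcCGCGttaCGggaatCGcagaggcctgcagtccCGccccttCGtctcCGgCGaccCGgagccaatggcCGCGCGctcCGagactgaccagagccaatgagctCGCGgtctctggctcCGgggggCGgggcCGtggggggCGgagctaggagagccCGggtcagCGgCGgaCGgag
Il4ra: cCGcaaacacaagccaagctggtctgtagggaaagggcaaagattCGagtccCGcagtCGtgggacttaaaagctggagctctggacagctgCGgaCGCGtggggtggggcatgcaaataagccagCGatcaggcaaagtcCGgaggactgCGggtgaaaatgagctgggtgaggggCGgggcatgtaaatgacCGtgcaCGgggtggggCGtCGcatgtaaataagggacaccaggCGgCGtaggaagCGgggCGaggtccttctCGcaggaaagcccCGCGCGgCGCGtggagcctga
Csf1: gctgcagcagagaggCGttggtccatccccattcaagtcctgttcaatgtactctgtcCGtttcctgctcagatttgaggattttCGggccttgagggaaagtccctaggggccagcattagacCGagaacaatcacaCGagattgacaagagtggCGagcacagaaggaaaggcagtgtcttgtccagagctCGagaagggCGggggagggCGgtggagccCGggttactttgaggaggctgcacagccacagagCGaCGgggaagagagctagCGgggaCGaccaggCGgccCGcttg
Csf2: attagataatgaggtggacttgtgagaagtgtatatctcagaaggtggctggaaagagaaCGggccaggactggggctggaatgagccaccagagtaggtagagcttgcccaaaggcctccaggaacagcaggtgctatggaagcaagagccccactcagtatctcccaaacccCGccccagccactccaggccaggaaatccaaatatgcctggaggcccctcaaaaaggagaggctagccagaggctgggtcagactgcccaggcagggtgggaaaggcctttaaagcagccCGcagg
The Il6st window held 33 CG, that of Il4ra 25 and that of Csf1 16, against 3 for Csf2 and 1 and 3 for the windows of Il1rl1. Members that were not called also had such windows, with 35 CG for Il3ra, 33 for Il1rap and 32 for Il17rb. Their fitted ratios were -0.07, 0.11 and 0.05. A link between CG count and ratio was not tested. Over all 32851 promoter windows the median was 7, and 43.5% held at least 10. Of 75 windows of 61 tested members, 29.3% held at least 10, with a median of 3 CG in the 30 windows of ligands and of 7 in the 38 windows of receptor chains. The AP-1 motif TGANTCA, searched on both strands, was found in 11 of the 75 member windows (14.7%), against 7.81% of all windows, and in 0 of those of Il6st, Il4ra, Csf1, Csf2 and Il1rl1. These are letters in the reference, and they say nothing of methylation or binding in the tumours.

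Il6st encodes gp130, the signal-transducing chain shared by the receptors of IL-6, IL-11, IL-27, LIF and oncostatin M. Its probe (mm7 chr13:109662276-109662335) gave ratios from -1.26 to 0.09 with a median of -0.49, and was lower in KO on 11 of 12 arrays. The exception was replicate 5 of pair B, and the lowest were replicates 4 and 12, of pairs A and D. Il6st fell by 0.54 on the log2 scale (95% interval -0.81 to -0.28; limma adjusted p = 0.0237), which is 1.46-fold higher in WT. Pair means were -0.65, -0.24, -0.34 and -1.09 in pairs A to D, all below 0. Without replicate 3 the adjusted p was 0.0524 and without replicate 12 it was 0.0505.

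Of the ligands and partner chains of gp130 among the members, 0 were called. Il6, the founding ligand of the family, ranged from -0.90 to -0.01 with a median of -0.10. It was below 0 on 12 of 12 arrays, but its ratio of -0.19 ± 0.073 (SE, n = 12 arrays) missed the threshold (limma adjusted p = 0.151), and pair D (-0.63) lay apart from pairs A to C (-0.08, -0.09 and -0.11). On slide 3 the Il6 probe was well above background in KO on 0 of 4 arrays and in WT on 1. Il11, a fibroblast and epithelial ligand of the family, ranged from -0.40 to 0.03 with a median of -0.09, and its ratio of -0.15 ± 0.045 (SE, n = 12 arrays) had a limma adjusted p of 0.0706, which was 0.0292 without replicate 5. It was below 0 on all 6 arrays with KO in Cy5 (mean -0.26), and its mean over the 6 with KO in Cy3 was -0.03. Il27, a ligand made by antigen-presenting cells, ranged from -0.35 to 0.12 (median -0.04, fitted -0.06, limma adjusted p = 0.373). The ligand-specific chain of IL-6, Il6ra, stood at 0.02 ± 0.072 (SE, n = 12 arrays). That of IL-11, Il11ra1, stood at -0.30 ± 0.15, with 2 probes that gave -0.30 and -0.27. Il27ra stood at -0.04. Il31ra, counted here with the family though it does not pair with gp130, stood at -0.09. In all, 7 of the 8 members counted in the family were below 0 while 1, Il6st, was called.

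Il4ra encodes the receptor chain shared by IL-4 and IL-13, which drives alternative activation of macrophages and mucus programmes in airway epithelium. Its probe (mm7 chr7:121674181-121674240) gave the widest spread of the 4, from -2.26 to 0.50 with a median of -0.70, and was lower in KO on 10 of 12 arrays. The fitted ratio fell by 0.77 on the log2 scale (95% interval -1.19 to -0.35; limma adjusted p = 0.0345), or 1.71-fold higher in WT. The size depended on the dye: the mean was -1.34 over the 6 arrays with KO in Cy5 and -0.20 over the 6 with KO in Cy3, where replicates 4 and 11 were above 0. The dye coefficient of -0.57 had a limma adjusted p of 0.0829. Without a dye term the adjusted p was 0.0942, and with the correlation between arrays of a pair raised to 0.133 it was 0.053. Leaving out replicate 1, 2, 3, 6, 7, 8, 9 or 12 raised it above the threshold, to at most 0.0725. Pair means were -1.09, -0.44, -1.28 and -0.28 in pairs A to D.

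The ligands of that receptor stood close to 0. Il4 ranged from -0.17 to 0.10 with a median of -0.04, and its ratio was -0.05 (limma adjusted p = 0.483). Il13 ranged from -0.22 to 0.35 with a median of 0.05, and its ratio was 0.04 (limma adjusted p = 0.714). The second chain of the type II receptor, Il13ra1, was -0.71 and -0.81 in pairs A and C and 0.19 and 0.11 in pairs B and D, and its 2 probes gave -0.29 and -0.28 overall (limma adjusted p = 0.391 at gene level). The decoy receptor Il13ra2 stood at -0.04 and the common gamma chain Il2rg, which completes the type I receptor, at -0.08. Of the other receptor chains of the common gamma family, Il2ra, Il2rb, Il9r, Il15ra and Il21r stood between -0.10 and -0.01. Il2rb was fitted on the 10 of 12 arrays that gave a value.

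Il7r, the IL-7 receptor chain of lymphocytes and dendritic precursors, had a ratio of -0.52 ± 0.18 (SE, n = 12 arrays), but missed the threshold (limma adjusted p = 0.111). Its arrays ranged from -1.73 to 0.52 with a median of -0.36, and the 2 arrays of pair D, at -1.73 and -1.46, were the lowest. The other 2 Il7r probes gave -0.03 and -0.07, but were well above background in KO on 8 and 8 of 12 arrays and in WT on 6 and 8, against 10 and 12 for the brightest probe. The background correction draws ratios of dim probes toward 0, but its part in the difference between these probes was not tested. On slide 3, which holds pair D, the brightest probe was well above background in KO on 2 of 4 arrays and in WT on 4. The ligand Il7 stood at -0.10 (arrays from -0.40 to 0.37, median -0.11, limma adjusted p = 0.583).

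Il12rb1 encodes the chain shared by the receptors of IL-12 and IL-23, which direct T helper responses. Its probe (mm7 chr8:69275795-69275854) ranged from -0.90 to 0.09 with a median of -0.25, was lower in KO on 11 of 12 arrays, and was above 0 only on replicate 4. The fitted ratio fell by 0.31 on the log2 scale (95% interval -0.47 to -0.15; limma adjusted p = 0.0275), or 1.24-fold higher in WT. All pair means were below 0, at -0.16, -0.29, -0.70 and -0.24. The probe was dim: on slide 3 it was well above background in KO on 0 of 4 arrays and in WT on 3. Leaving out replicate 2, 7, 8, 9 or 12 raised its adjusted p above the threshold, to at most 0.0627. The specific chains Il12rb2 and Il23r stood at -0.01 and 0.01. The ligand subunits Il12a (arrays -0.20 to 0.19, median -0.0012) and Il12b (-0.15 to 0.06, median -0.0071) had fitted ratios of -0.01 and -0.03, with limma adjusted p of 0.866 and 0.600. Il23a, the specific subunit of IL-23, ranged from -0.22 to 0.33 with a median of 0.07 and a fitted ratio of 0.08 (limma adjusted p = 0.372).

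Csf1 encodes M-CSF, the growth factor of macrophages and their precursors. Its probe (mm7 chr3:107559703-107559762) ranged from -0.92 to 0.02 with a median of -0.30, and 11 of 12 arrays were below 0. The 2 arrays of pair D, at -0.90 and -0.92, were the lowest, and the arrays with KO in Cy5 and in Cy3 gave means of -0.37 and -0.38. Csf1 fell by 0.39 on the log2 scale (95% interval -0.59 to -0.18; limma adjusted p = 0.0322), or 1.31-fold higher in WT. Its pair means were -0.25, -0.19, -0.43 and -0.91. Leaving out replicate 1, 3, 7, 9 or 12 raised the adjusted p above the threshold, to at most 0.0645. Its receptor Csf1r, outside the rule, stood at -0.20 ± 0.11 (SE, n = 12 arrays; limma adjusted p = 0.316), and the second ligand of that receptor, Il34, at -0.14 (limma adjusted p = 0.510).

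Csf2 encodes GM-CSF. Its arrays ranged from -1.58 to 0.10 with a median of -0.52, with 10 of 12 below 0 and replicates 10 and 11 above. The fitted ratio was -0.63 ± 0.19 (SE, n = 12 arrays; 95% interval -1.05 to -0.22), larger than that of Csf1 but with a wider spread, and its limma adjusted p of 0.067 missed the threshold. Pair means lay between -0.79 and -0.41, closer together than those of Csf1, while the 2 arrays of pair C (-1.58 and 0.09) and those of pair D (0.10 and -1.36) lay far apart. Csf2 passed the threshold with the slide as block (adjusted p = 0.0432), with no block (0.0359) and without replicate 10 (0.0392). The ligand-specific chain Csf2ra ranged from -0.93 to 0.68 with a median of -0.22 and a fitted ratio of -0.12 (limma adjusted p = 0.658). The common beta chain Csf2rb, which the files name Csf2rb1, stood at -0.28 ± 0.19 (SE, n = 12 arrays; limma adjusted p = 0.431). Its close relative Csf2rb2, a beta chain of IL-3, stood at -0.29 ± 0.16 (limma adjusted p = 0.292), and probes of such near copies may bind both transcripts. Il3 and Il3ra, the other pair of that family in the test, stood at 0.0031 and -0.07.

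**Figure D2:**
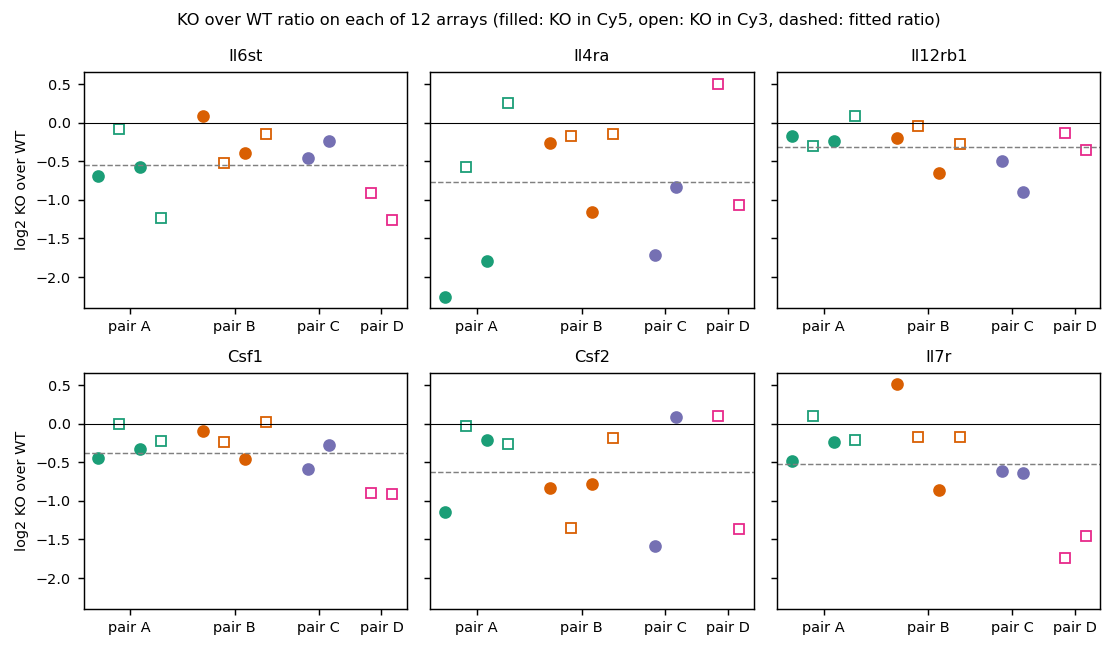
Log2 KO over WT ratio on each of the 12 arrays, grouped by pair, for Il6st, Il4ra, Il12rb1, Csf1, Csf2 and Il7r; filled points are arrays with KO in Cy5, open points arrays with KO in Cy3, and the dashed line is the fitted ratio. Il6st, Il12rb1 and Csf1 lie below 0 on 11 of 12 arrays, while Il4ra spans -2.26 to 0.50 and its Cy5 arrays average -1.34 against -0.20 for its Cy3 arrays.

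Tumour necrosis factor, Tnf, ranged from -0.25 to 0.15 with a median of -0.06, and its fitted ratio of -0.05 had a 95% interval of -0.13 to 0.03 (limma adjusted p = 0.453). The receptor of G-CSF, Csf3r, a granulocyte gene, ranged from -0.38 to 0.37 with a median of 0.02 and a fitted ratio of 0.03 (limma adjusted p = 0.889), while Csf3 itself was well above background on 0 of 12 arrays. Csf3r was above 0 in pair A (0.27) and below 0 in pair D (-0.37).

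In the IL-1 family 0 of 17 tested members were called, and the median ratio was -0.0063. Il1b, an inflammatory ligand of myeloid cells, had the widest range of pair means in the family: 0.27, 0.71 and 0.56 in pairs A, B and C and -1.51 in pair D. Its arrays ranged from -1.87 to 1.14 with a median of 0.39, and the fitted ratio was 0.14 ± 0.25 (SE, n = 12 arrays; limma adjusted p = 0.813; adjusted p between pairs = 0.100). Its relative Il1a stood at 0.0014, and the antagonist Il1rn and the decoy receptor Il1r2 at -0.0082 and -0.15. The signalling receptor Il1r1 ranged from -0.56 to 0.90 (median 0.02, fitted 0.06, limma adjusted p = 0.802). The shared chain Il1rap ranged from -0.53 to 0.68 (median 0.09, fitted 0.11, limma adjusted p = 0.601), and its 4 kept probes gave ratios from -0.18 to 0.11. The largest positive ratio of any member was that of Il1rl2, a receptor of the IL-36 ligands, at 0.28 ± 0.088 (SE, n = 12 arrays). It was above 0 on 9 of 12 arrays (lowest -0.26, median 0.32, highest 0.64), and its limma adjusted p of 0.082 missed the threshold, which it passed without replicate 2 (0.0238).

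Il18, a ligand made by epithelium and macrophages, ranged from -0.50 to 1.12 with a median of 0.15 and a fitted ratio of 0.27 (limma adjusted p = 0.391). Its receptor chains lay on the other side of 0 without passing the test. Il18r1 ranged from -1.24 to 1.55 with a median of -0.55 and a fitted ratio of -0.32 (limma adjusted p = 0.481). Of all settings tried it was called in 1, without replicate 4, which stood at 1.55, and the ratio was then -0.51 (limma adjusted p = 0.030). Il18rap ranged from -0.98 to 0.10 with a median of -0.26, and its ratio of -0.36 ± 0.13 (SE, n = 12 arrays) had a limma adjusted p of 0.109. Il18bp, the secreted binding protein of IL-18, stood at -0.13 ± 0.043 (limma adjusted p = 0.0879), and a second probe at -0.34 (adjusted p over all probes = 0.0632).

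Il1rl1 encodes ST2, the receptor of IL-33, as a membrane form and a soluble decoy form. Its brightest probe (mm7 chr1:40705585-40705644), assigned in the files to transcript variant 1, the membrane form, ranged from -1.40 to 0.31 with a median of -0.0089. The 2 arrays of pair D, at -1.38 and -1.40, lay far below the other 10, which ranged from -0.29 to 0.31. Over 12 arrays the ratio was -0.21 ± 0.13 (SE) and was not called (limma adjusted p = 0.385). Pair means, not corrected for dye, were -0.05, 0.06, 0.21 and -1.39 for A to D. The pairs differed by an F test with a limma adjusted p of 0.00692. That test held a common dye term, which only pairs A and B can inform. Il1rl1 was the 1 member of 75 tested that was called between pairs, against 0.346% of all genes. Pair C, on the same slide and scan day as pair D but with KO in Cy5 on both arrays, stood at 0.21. Pair D differs from the other pairs in its tumours and in having KO in Cy3 on both arrays, and these cannot be told apart. The ratio followed the dye on all arrays, above 0 on the 6 with KO in Cy5 and below 0 on the 6 with KO in Cy3, as did 1.6% of all genes and 1 other member, Il15ra. In pairs A and B, which hold both orientations, the lowest Il1rl1 array with KO in Cy3 stood at -0.29. The dye effect within pair D was not tested, since both of its arrays have KO in Cy3.

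The other Il1rl1 probes were dimmer, well above background in KO on 9 and 8 of 12 arrays and in WT on 9 and 9, against 12 and 12 for the variant 1 probe. Ratios of dim probes are drawn toward 0, so their sizes cannot be set against that of the variant 1 probe. The probe assigned to variant 2 (chr1:40688351-40688410), the soluble form, had pair means of 0.23, 0.06, -0.0027 and -0.40, and a probe that the files list against both variants (chr1:40680766-40681628) had -0.01, 0.05, -0.02 and 0.11. Their overall ratios were 0.02 and 0.03. When all 3 probes, dim ones included, were averaged, the adjusted p between pairs was 0.108. The ligand Il33, an alarmin of epithelial and endothelial nuclei that lies outside the rule, had pair means of 0.12, 0.89, 0.98 and -1.46. It was not called over the 12 arrays (0.23 ± 0.23, SE, limma adjusted p = 0.625) or between pairs (adjusted p = 0.346). Il33 was above 0 on all 6 arrays with KO in Cy5 (mean 0.95) and averaged -0.43 over the 6 with KO in Cy3. Pair C has KO in Cy5 only and pair D in Cy3 only, so pair and dye cannot be told apart there. Of 8 mast cell and basophil markers, a cell type that carries ST2, 0 were called. Their means in pair D went both ways, from -0.48 (Mcpt8) to 0.90 (Tpsab1), and their summed normalized intensity over the 12 arrays was 1607 to 3141 in KO and 1338 to 9552 in WT. Their part in the Il1rl1 difference was not tested.

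**Figure D3:**
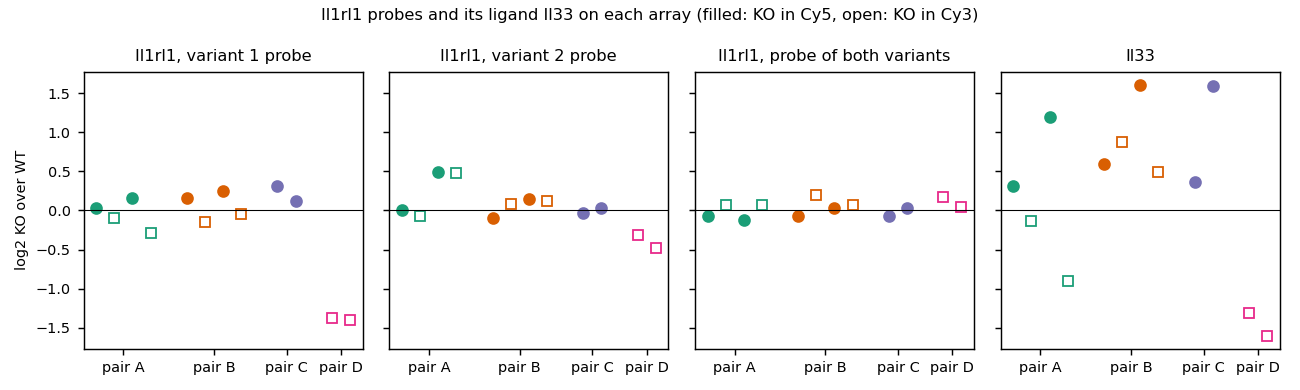
Log2 KO over WT ratio on each array for the 3 kept Il1rl1 probes and for Il33, grouped by pair; filled points are arrays with KO in Cy5 and open points arrays with KO in Cy3. The variant 1 probe lies between -0.29 and 0.31 on 10 arrays and at -1.38 and -1.40 on those of pair D. In pair D, which has KO in Cy3 only, Il33 averages -1.46 and the dimmer probe of both variants 0.11.

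The remaining families held 0 called members. In the IL-17 family, 10 tested members had a median of -0.04. Its largest ratio was that of the ligand Il17d, at -0.24 (arrays -1.14 to 0.28, median -0.14, limma adjusted p = 0.256). Il17rb, the receptor of IL-25, stood at 0.05, with -0.65 in pair C against 0.12 to 0.34 in the other pairs. In the IL-10 and lambda interferon family, 9 members had a median of -0.04, and Il10ra, the ligand-binding chain of the IL-10 receptor, was lowest at -0.30 ± 0.10 (SE, n = 12 arrays; limma adjusted p = 0.0929). Il10 itself was below 0 on 11 of 12 arrays but by little, at -0.04 ± 0.025. Il24, a ligand of the IL-20 subfamily, stood at -0.15 (median -0.02, limma adjusted p = 0.652). Its replicate 1 read -1.81, the other 11 arrays lay between -0.18 and 0.14, and without replicate 1 the ratio was -0.0041. A second kept probe of Il24 also read low on replicate 1, at -1.83, and lay between -0.20 and 0.29 on the other arrays. Il21, a T cell ligand, had the next highest ratio among ligands after Il18, Il1b and Il23a, at 0.06 (arrays -0.16 to 0.21, median 0.07, limma adjusted p = 0.422). Il4i1 varied most, from -1.72 to 1.85, with 0.50 and 0.47 in pairs A and B and -0.90 and -1.61 in pairs C and D (limma adjusted p = 0.857; between pairs 0.454).

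Pair D held the lowest pair mean for 41 of 76 members (53.9%), against 35.7% of all genes, and pair A for 6 (7.89%) against 17.5%. Its mean was below -1 for 6 members (Il18r1, Il1b, Il1rl1, Il4i1, Il6st and Il7r), whereas pairs A and C each had 1 such member, Il4ra, and pair B had 0. Of all genes 2.33% lay below -1 in pair D. A mean of 2 arrays varies more than a mean of 4, in pairs C and D alike. Both arrays of pair D have KO in Cy3. They had the fewest probes well above background in KO (59.2% and 59.0%) and the most outlier spots (648 and 828). Tumour, dye and array quality cannot be told apart in pair D.

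**Figure D4:**
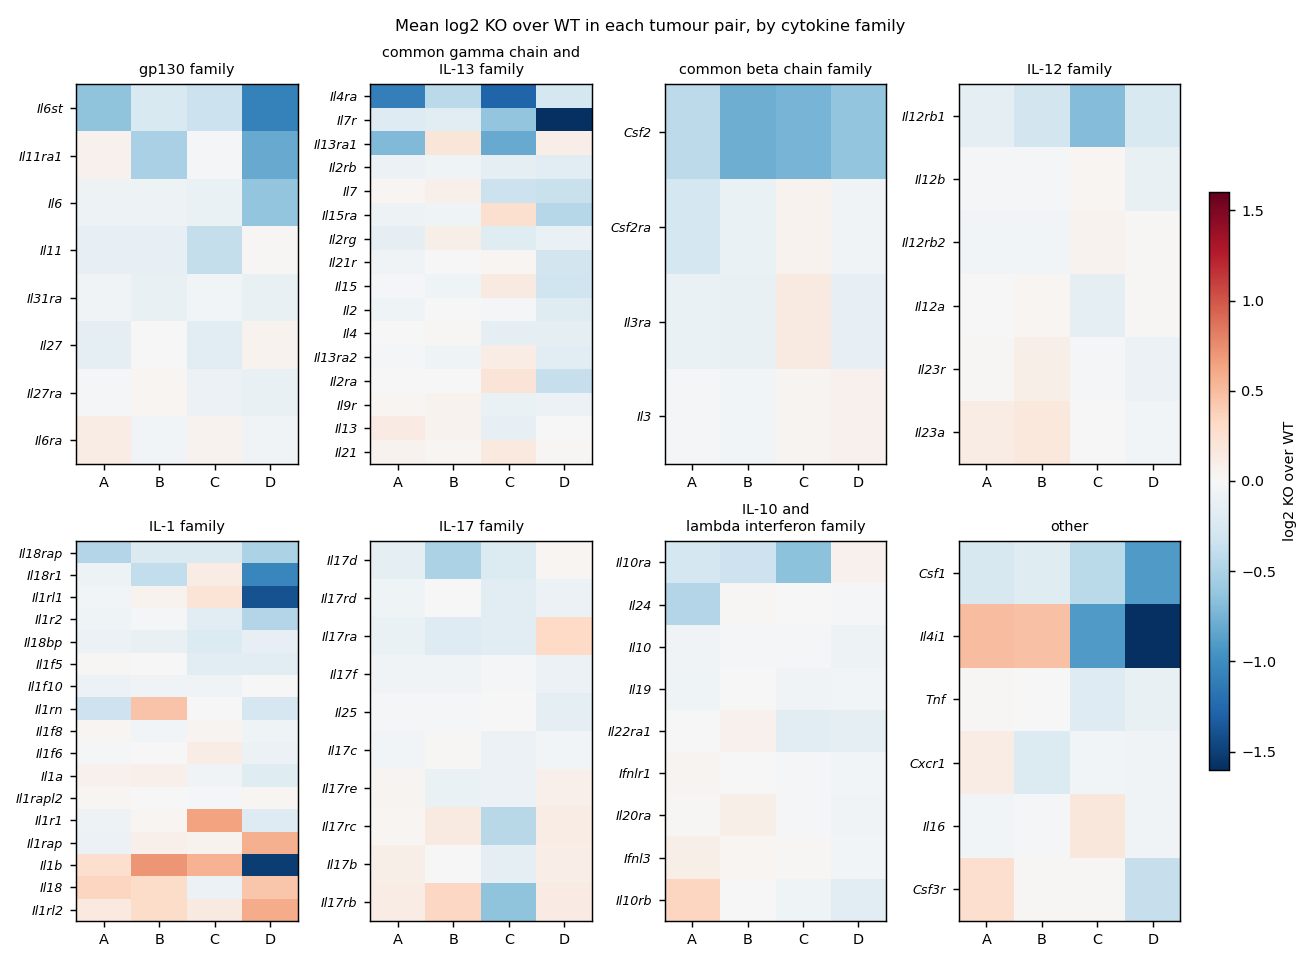
Mean log2 KO over WT ratio of each tested member (rows) in pairs A to D (columns), in 8 panels by cytokine family, with blue for lower and red for higher in KO. Il6st, Il4ra, Il12rb1, Csf1 and Csf2 are blue in all 4 columns, while Il1rl1, Il1b, Il7r and Il4i1 are darkest in pair D.

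Detection limits what can be said of ligands. Both genotypes were well above background on 12 of 12 arrays for 44 of 76 members, which were 14 of 33 ligands and 27 of 38 receptor chains. On slide 3, 10 members (Il23a, Il1f10, Il19, Il12b, Il3, Il1f6, Il23r, Il20ra, Cxcr1, named Il8ra in the files, and Il1rapl2) were well above background on no array. The offset of the background correction draws ratios of dim probes toward 0, so that a ratio near 0 of such a ligand does not show equal levels.

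Of genes outside the rule that act with the members, 1 of 21 receptors and ligands fell and 0 rose. Over all genes, 3.96% were called lower and 3.51% higher, so that 1 of 21 is close to the background share. The gene that fell was Osmr, the oncostatin M receptor chain that pairs with gp130. It was below 0 on 12 of 12 arrays, from -1.96 to -0.08 with a median of -1.10, and fell by 0.94 on the log2 scale (SE 0.20, limma adjusted p = 0.021). Its ligand Osm and the LIF receptor chain Lifr stood at -0.08 and -0.09. Of 18 Janus kinases, STATs and feedback genes, 2 fell and 1 rose. Jak2, which relays Csf2, IL-3 and gp130 signals, fell by 0.42 (limma adjusted p = 0.0265), Jak3, the kinase of the common gamma chain, fell by 0.32 (0.0196), and the phosphatase Ptpn6 rose by 0.34 (0.0301). Stat3 and Stat6, the main STAT proteins of gp130 and of Il4ra, stood at -0.49 and -0.13 and were not called (limma adjusted p = 0.149 and 0.380). Of 22 genes of the IL-1 and Toll adaptor pathway, 3 fell: the kinase Irak4 by 0.40, the NF-kappaB cofactor Nfkbiz by 0.65 and the NF-kappaB inhibitor Tnfaip3 by 0.46. The medians of these 3 lists were -0.09, -0.09 and -0.12, against -0.0060 for all genes.

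Markers of other cells in the tumours were set beside these results, and beside the 3.96% of all genes called lower and 3.51% called higher. All 8 endothelial markers tested fell in KO, with a median of -0.74. The summed normalized intensity of these markers was 7676 to 11734 in KO and 14439 to 26499 in WT. These ranges do not overlap, and how often sums of other genes do so was not computed. The median log2 ratio of the 8 markers was taken on each array. Its median over the arrays of a pair was -0.75, -0.79, -0.68 and -0.98 in pairs A to D. Markers of macrophages and monocytes were called in 0 of 8 cases (median -0.21). The fitted ratio was below 0 for 7 of the 8 (87.5%), against 52.7% of all genes. Their sums were 118808 to 363955 in KO and 113921 to 361477 in WT. These sums rest mostly on Lyz2, the 1 marker above 0 (0.26), and do not show equal levels of the others. The median KO level of Lyz2 was 17.8 on the log2 scale, against 14.0 for the next brightest, Marco. Of 6 tested neutrophil markers 1 rose (Mmp8, 0.74), and of 5 dendritic cell markers 1 fell (Itgax, -0.54). Among 6 fibroblast markers 1 rose (Lum, 1.13), and of 7 B and plasma cell markers 1 fell (Jchain, -2.07). In that order, the list medians were -0.04, -0.05, -0.19 and -0.03, with 3, 4, 4 and 5 markers below 0. Of 8 T cell, 4 NK cell and 3 eosinophil markers 0 were called. The part of these cell types in the lower Il6st, Il4ra, Il12rb1 and Csf1 was not tested.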

How the data were processed

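RNA of 12 direct comparisons of KO with WT tumours was measured on two-colour Agilent arrays. Per the file headers, mean spot intensities, local background intensities and flags of 0 or 1 (well above background, saturated, outlier) were extracted with Feature Extraction 10.1.1.1 (protocol GE2-v5_10_Apr08, array design 014868), with probes placed on mm7. The deposited log2 ratios of the authors, whose scale and centring the files do not state, were used as an alternative, and correlated with the ratios computed here at an r of 0.991 to 0.997.

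Mean intensities were background-corrected with normexp (offset 50, outlying local backgrounds replaced by the median of the array and dye) and loess-normalized in limma 3.58.1 (R 4.3.3, statmod 1.5.0), with control and outlier spots at weight 0. Ratios were turned to KO over WT before the fit. Of 41174 probes, 35562 were kept (well above background for KO or WT on at least 6 of 12 arrays). Each gene was read from the brightest of its kept probes, and a second fit tested all probes. Names came from the probe's RefSeq accession (22951 probes), else from the file (11758), and 6465 probes had none. The model held KO over WT and a dye term, with the pair as random block (consensus correlation 0.0772), and p-values were adjusted by Benjamini-Hochberg over 19921 genes. An F test on pair coefficients, with a common dye term informed by pairs A and B, covered 19361 genes. It left out 560 genes with a missing array value. The fit was also run on simulated data with a known pair correlation, and its estimate of that correlation was 0.056 too low. The 0.133 setting is the estimate here raised by that shortfall. If the estimate here is too low as well, the p-values are too small.

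The pairs come from shared ages and sexes in the labels, and the replicate numbers pair nothing across groups, since each array holds both genotypes. The number of arrays and of tumours limits the precision. Members and lists were chosen with earlier results of these data known. Named with array values were called members, their ligands or receptors, Csf1, Csf2, Il1rl1, Tnf, Csf2ra and Csf3r, members with a called probe, and the 3 highest and 3 lowest other ratios among ligands and among receptor chains; values of further members were added for context after they were seen. Alternatives covered background correction, normalization, filters, probes per gene, dye and block terms, variance model, threshold, the authors' ratios and left-out arrays, pairs or slides. The 0.133 correlation, the offset of 10, and pairs A and B alone were chosen after seeing the data.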

Additional observations from a re-analysis of the deposited data

Results flagged for a closer look

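Within the pairs of 4 arrays, 29 members gave 58 groups, in 7 of which 1 array lay apart from the other 3 by Dixon's test at its 95% limit. Chance gives about 1 such group in 20. In pair B, replicate 7 stood at -1.16 for Il4ra, against -0.27 to -0.15 on the other 3 arrays, at -0.88 for Il18rap, against -0.04 to -0.0032, and at -0.14 for Il12b, against -0.0042 to 0.02. Replicate 5 of pair B stood at 0.30 for Csf2ra, against -0.30 to -0.22. In pair A, replicate 1 stood at -1.81 for Il24, against -0.17 to 0.10, and the second kept Il24 probe read -1.83 there. Also in pair A, replicate 2 stood at -0.26 for Il1rl2, against 0.24 to 0.32, and replicate 4 at -0.012 for Il6, against -0.11 to -0.09. Il1rl1 differed between the 4 pairs (limma adjusted p = 0.00692), with its variant 1 probe at -0.05, 0.06 and 0.21 in pairs A to C and -1.39 in pair D.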

How the results depend on the processing

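The 4 called members kept a ratio below 0 in every setting run, 36 for Il12rb1 and 37 for each of the others, and passed the threshold in 26 (Il6st), 21 (Csf1), 20 (Il12rb1) and 16 (Il4ra) of them. The count of members lower in KO, 4 here, was 2 with local backgrounds as deposited, 1 with median centring (Il12rb1), 1 with a trended robust variance (Il6st), 0 when each pair was averaged to 1 value and 0 at an adjusted p under 0.01. It was 0 without pair A or C, 1 without pair B (Il6st) or D (Csf1), 0 within slide 1, 2 or 3, and 0 in pairs A and B alone. It lay between 3 and 6 in the other settings, and between 0 and 6 when 1 replicate was left out. The count of members higher in KO, 0 here, was 1 with local backgrounds as deposited or no block (Il1rl2), 1 without pair D (Il23a), and 0 or 1 with 1 replicate left out. All genes called numbered 1487 here, 363 with median centring, 609 with a trended robust variance, 49 by pair means, 2190 with no block and 0 to 1 within a slide. Members differing between pairs, 1 here, were 0 with the mean of probes, 1 with median centring, with no filter and with the authors' ratios, and 1 to 2 with 1 replicate left out (Il7r joined without replicate 5). The adjusted p of Il1rl1 between pairs was then 0.0135 to 0.0494. The causes were not tested beyond what leaving out arrays shows. Dim ligands on slide 3 limit what can be measured.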
